A study of Mus musculus with 22 samples.

Results

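The cytochrome P450 genes were described in the livers of 22 male C57BL/6J mice whose RNA had been measured on Affymetrix HT MG-430 arrays. Members were all genes of the table whose mouse symbol, found by Entrez ID in the RefSeq gene table of GRCm38.p6, begins with Cyp followed by a digit. This rule gave 58 of 13392 genes, chosen by name and not by any measured value. Families 1 to 4, whose enzymes act mainly on drugs and fatty acids, held 40 members, and the other families, most of whose enzymes act on sterols, bile acids, steroid hormones or vitamins, held 18. Cyp2d13 and Cyp4f41-ps are annotated as transcribed pseudogenes. The RefSeq table lists 99 protein-coding symbols of this form, so a large share of the superfamily, among it Cyp1a2, Cyp2e1, Cyp3a11, Cyp2a5 and Cyp4a12b, was not analysed here.

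The 3 control mice (title numbers 4, 49 and 50) had been given saline and oil, are labelled healthy and received vehicle. The 9 model vehicle mice (76 to 81 and 92 to 94) and the 10 model nintedanib mice (82 to 91) had all received N-nitrosodiethylamine (DEN), a liver carcinogen, in a single injection, and then carbon tetrachloride (CCl4), a toxin that scars the liver, every week. After fibrosis had formed they were given vehicle or nintedanib, an inhibitor of VEGF, PDGF and FGF receptor kinases, at 50 mg/kg for 5 weeks. RNA came from frozen liver outside tumours. Ages, and the length of vehicle dosing in the controls, are not given in the sources used here. Each array held 1 mouse, and no label says whether mice shared a litter, cage or day of collection.

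Cytochrome P450 enzymes are haem proteins that insert an oxygen atom into their substrates, taking electrons from the reductase encoded by Por in the endoplasmic reticulum or from the ferredoxin system in mitochondria. In the liver they clear drugs and toxins, oxidise fatty acids and convert cholesterol to bile acids, and several of them turn DEN and CCl4 into reactive products. Many mouse P450 genes differ between the sexes, because the pattern of growth hormone release sets their transcription, and others are confined to hepatocytes near the central vein or follow the circadian clock. The growth hormone pattern acts on these genes largely through the transcription factor STAT5b.

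Values are log2 expression levels, so a difference of 1 is a doubling, and a level of 1 gene cannot be set against that of another. Array medians lay between 2.83 and 3.09, and the arrays of nintedanib mice 89 and 91 stood apart, with the highest medians and the lowest correlations with the others. The clock gene Dbp separated runs of title numbers: it lay between 5.04 and 6.19 in the controls and mice 76 to 82, and between 8.79 and 9.27 in mice 83 to 94. Nintedanib mouse 82 fell in the first of these runs and vehicle mice 92 to 94 in the second, so nintedanib calls are also given with the run as a block and, against vehicle mice, within mice 83 to 94, a run that holds no control. The labels do not say what the runs are. All controls have lower title numbers than all model mice, so the model cannot be told apart from anything else that differed between these sets.

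Markers of cell types gave the setting for the P450 results. A gene passed at an adjusted p under 0.05 in limma's test over all genes. From control to vehicle 1.55% of all genes rose, and 4.96% of the 3348 with the highest mean level. From control to nintedanib 2.87% and 8.84% rose. Those 3348 genes hold 6 of the 8 stellate cell and fibroblast markers, all 7 macrophage markers and 5 of the 6 endothelial markers. The 4 measured hepatocyte markers of 16 listed (Tat, Pck1, G6pc and Asgr2) averaged 9.39 to 9.82 in the controls, 9.41 to 9.85 in vehicle mice and 9.32 to 9.94 in nintedanib mice, and none passed between controls and vehicle mice or between the model groups, while 1 rose between controls and nintedanib mice. Of 8 stellate cell and fibroblast markers 4 rose from control to vehicle, and their average went from 4.49 to 4.72 in the controls to 5.34 to 5.92 in vehicle mice. Gpnmb, 1 of 7 macrophage markers, rose too, and their average was 5.38 to 5.75 in controls and 5.99 to 7.34 in vehicle mice. Of 6 endothelial markers 2 rose (4.96 to 5.34 in controls, 5.31 to 5.72 in vehicle mice), as did 1 of 7 lymphocyte markers and none of 7 cholangiocyte markers. In bulk liver, fewer cells of a type and less RNA per cell cannot be told apart, and the part these cells played in the P450 differences was not tested.

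All 58 members were tested, with no filter on low values. Their mean levels over the 22 arrays ran from 1.92 for Cyp3a16 to 11.93 for Cyp2f2, and 34 members were among the 3348 brightest genes, above 4.32. Another 17 lay below 2.86, the median gene of the table, which is near the background of these arrays. Of families 1 to 4, 25 members were among these brighter ones, and of the other families 9. The dim members included Cyp1a1 and Cyp1b1, which oxidise polycyclic aromatics, the steroid hormone genes Cyp11a1, Cyp11b1, Cyp11b2, Cyp19a1 and Cyp21a1, and the vitamin D genes Cyp24a1 and Cyp27b1. Mouse subfamilies 2b, 2c, 2d, 2j, 3a, 4a and 4f hold near-identical copies, so a probe set named for a member may also read its neighbours, and values of these members are uncertain in that respect.

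In damaged livers given vehicle, P450 genes changed in both directions. Against the controls, 10 of the 58 members passed in limma's test with Benjamini-Hochberg adjustment over all genes at 0.05, where 2.52% of all genes passed. Of these, 6 fell (Cyp7b1, Cyp2u1, Cyp2c37, Cyp2c54, Cyp2j6 and Cyp2j5) and 4 rose (Cyp7a1, Cyp39a1, Cyp4a31 and Cyp3a44), against 0.971% and 1.55% of all genes. All 10 were among the 34 brighter members, where 6.96% of the 3348 brightest genes passed. The median difference over all members was -0.05 log2 and over all genes -0.02. With the run as a block 9 members passed, all but Cyp2j5, against 2.91% of genes. With vehicle mice 76 to 81 alone 11 members passed, against 2.64% of genes.

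Of the 6 P450 genes of bile acid synthesis 2 rose and 1 fell. Cyp7b1 hydroxylates oxysterols in the alternative route to bile acids and is expressed more in male than in female mouse liver. Its level was 10.45, 10.42 and 10.72 in controls 4, 49 and 50, and had a lowest, median and highest value of 6.81, 8.12 and 8.92 in vehicle mice. Every vehicle mouse lay below every control. Cyp7b1 was thus 5.62-fold lower, by -2.49 ± 0.32 log2 (SE of the fit, adjusted p = 3.3e-05), and by -2.46 when vehicle mice 76 to 81, which have control-like Dbp, were set against the controls.

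Cyp7a1, the rate-limiting enzyme of the classical route and a gene with a daily rhythm, went the other way. Controls had 7.83, 6.99 and 7.06, and vehicle mice 7.83, 8.61 and 9.41 as lowest, median and highest, with only the highest control touching the vehicle range. The difference was 1.39 ± 0.29 log2, or 2.62-fold (adjusted p = 0.0066). Vehicle mice 76 to 81 averaged 8.46 (7.83 to 9.40) and vehicle mice 92 to 94 averaged 9.13 (8.62 to 9.41), so their ranges overlapped. Without vehicle mice 92 to 94, and with the nintedanib mice in the fit, Cyp7a1 kept its call. With vehicle mice 76 to 81 alone, and the nintedanib mice out of the fit, the difference was 1.17 ± 0.29 (adjusted p = 0.0516). The call was also lost without control 49 or control 50, with adjusted p up to 0.078.

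Cyp39a1 hydroxylates 24-hydroxycholesterol and is higher in female than in male mouse liver. It stood at 6.93, 6.68 and 6.55 in the controls and at 7.44, 7.83 and 8.22 (lowest, median, highest) in vehicle mice, without overlap. It rose by 1.12 ± 0.19 log2, 2.17-fold (adjusted p = 0.00129), and by 1.23 in vehicle mice 76 to 81. The other bile acid members did not pass. Cyp8b1, which makes cholic acid, had 9.06, 8.99 and 9.44 in controls and 7.50 to 9.35 in vehicle mice (difference -0.57 ± 0.36, adjusted p = 0.522). Cyp27a1, the mitochondrial sterol 27-hydroxylase, kept within 10.12 to 10.52 over both groups (-0.08 ± 0.10, adjusted p = 0.806), and Cyp46a1, known as the cholesterol 24-hydroxylase of brain, differed by -0.05 ± 0.21. Among 9 measured genes of bile acid conjugation and transport, Abcc4, an export pump of the basolateral membrane, rose by 0.96 ± 0.18 (adjusted p = 0.00242) and no other passed.

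**Figure D1:**
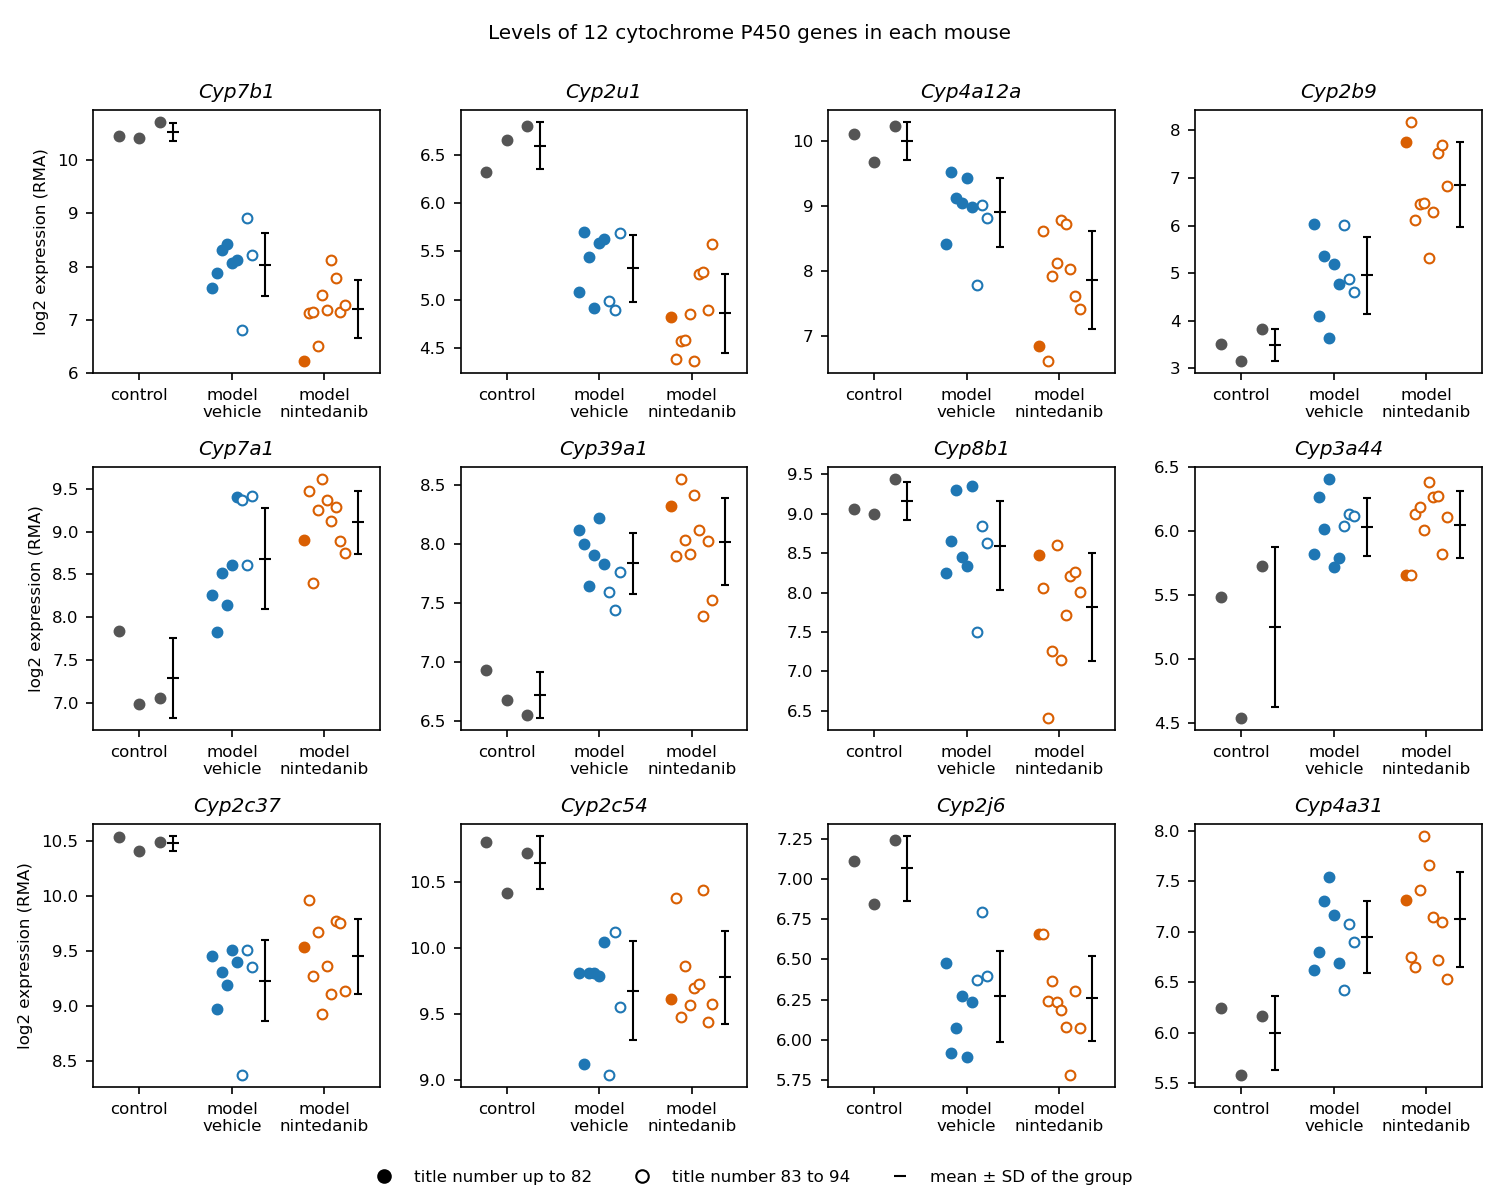
Levels of 12 cytochrome P450 genes in each mouse. The y axis is log2 expression. Filled points are controls and mice up to number 82, open points are mice 83 to 94, and bars give the mean ± SD of each group. Cyp7b1, Cyp2u1, Cyp4a12a, Cyp2c37, Cyp2c54 and Cyp2j6 lie lower and Cyp39a1 and Cyp4a31 higher in all vehicle mice than in all controls.

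Of the 4 measured members known as male-biased in mouse liver, 2 fell and none rose, where 0.971% of all genes and 2% of the 3348 brightest fell. This list and the female-biased one below were drawn up with earlier results of these data known. Cyp2u1, a hydroxylase of long-chain fatty acids, had 6.33, 6.66 and 6.81 in the controls and 4.89, 5.44 and 5.70 (lowest, median, highest) in vehicle mice. The groups did not overlap, and the difference was -1.28 ± 0.23 log2, 2.42-fold lower (adjusted p = 0.00184). Cyp4a12a, which makes the vasoactive lipid 20-HETE, and Cyp2d9, a testosterone hydroxylase, did not pass with all vehicle mice. Cyp4a12a was at 10.10, 9.68 and 10.23 in controls and at 7.78, 9.02 and 9.52 in vehicle mice (-1.10 ± 0.37, adjusted p = 0.131). For Cyp2d9 the controls lay at 11.62, 11.56 and 11.60 and the vehicle mice at 9.54, 10.93 and 11.35 (-0.73 ± 0.23, adjusted p = 0.0963).

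Neither gene's groups overlapped, and vehicle mouse 92 was the lowest in both. With vehicle mice 76 to 81 alone, both passed: Cyp4a12a was lower by -0.92 ± 0.21 (adjusted p = 0.0414) and Cyp2d9 by -0.61 ± 0.13 (adjusted p = 0.0254). When vehicle mice 92 to 94 were left out but the nintedanib mice stayed in the fit, Cyp2d9 passed and Cyp4a12a did not. Averaged over the 4 genes, the male-biased members stood at 9.58 to 9.84 in controls and 7.28 to 8.58 in vehicle mice.

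Of the 6 measured female-biased members, 2 rose (Cyp39a1 and Cyp3a44) and none fell, where 1.55% of all genes and 4.96% of the 3348 brightest rose. Cyp3a44 belongs to the 3a subfamily, which hydroxylates steroids and many drugs. Controls had 5.48, 4.54 and 5.72 and vehicle mice 5.72, 6.04 and 6.41, so that the highest control met the lowest vehicle mouse. It rose by 0.79 ± 0.19 log2, 1.73-fold (adjusted p = 0.024), but not without control 49, whose level was the lowest (adjusted p = 0.265), nor without vehicle mice 92 to 94. Cyp17a1, which converts progestogens to androgen precursors, was at 5.03, 3.71 and 4.44 in controls and 5.02, 5.54 and 7.62 in vehicle mice (1.34 ± 0.40, adjusted p = 0.0711). It passed with vehicle mice 76 to 81 alone (1.10 ± 0.26, adjusted p = 0.0427). When vehicle mice 92 to 94 were left out but the nintedanib mice stayed in the fit, Cyp17a1 did not pass. Cyp2b9 had 3.50, 3.15 and 3.81 in controls and 3.63, 4.87 and 6.04 in vehicle mice (1.46 ± 0.48, adjusted p = 0.116). The dim members Cyp2b13 and Cyp3a16 differed by -0.09 ± 0.20 and -0.02 ± 0.12.

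**Figure D2:**
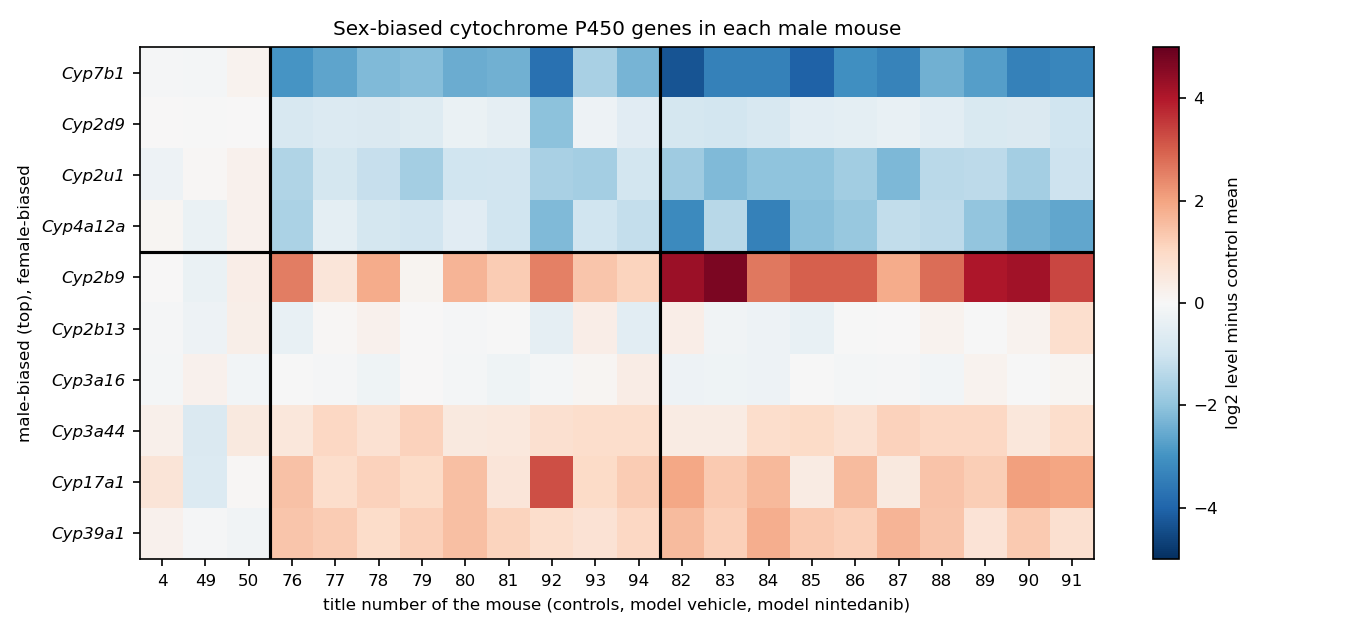
Each cell is the log2 level of a gene in 1 male mouse minus the mean of the 3 controls, for 4 male-biased genes (top) and 6 female-biased genes, with mice along the x axis by title number within controls, model vehicle and model nintedanib. Values run from -4.30 to 4.69; Cyp7b1 is the lowest row in nearly all model mice, and Cyp2b9 is the highest row in nintedanib mice.

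The 2c subfamily, which makes epoxides of arachidonic acid and clears many drugs, had 2 of 8 members lower and none higher. Cyp2c37, a gene of hepatocytes near the central vein, was at 10.54, 10.41 and 10.50 in the controls. Its vehicle levels were 8.37, 9.36 and 9.51, all below the controls, and it fell by 1.25 ± 0.21 log2 (2.38-fold lower, adjusted p = 0.000801), and by 1.17 in vehicle mice 76 to 81. Cyp2c54 was at 10.80, 10.42 and 10.72 in controls and 9.04, 9.81 and 10.12 in vehicle mice, again without overlap. It fell by 0.97 ± 0.22 (adjusted p = 0.0115), and did not pass without control 4 or control 50 (adjusted p up to 0.0997).

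Their neighbours in the subfamily did not pass. Cyp2c50 lay below the controls in every vehicle mouse (11.76, 11.67 and 11.63 against 10.89 to 11.43) without passing, at -0.48 ± 0.15 (adjusted p = 0.0837), and Cyp2c29 gave -0.36 ± 0.11 (adjusted p = 0.0706). Cyp2c23 (-0.22 ± 0.15), Cyp2c38 (-0.07 ± 0.32) and Cyp2c55 (0.71 ± 0.25, adjusted p = 0.152) were further from the threshold. Among the 5 measured members known to be pericentral, Cyp2c37 fell, Cyp7a1 rose, and Cyp2c29, Cyp2c50 and Cyp27a1 did not pass.

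Subfamily 2j, whose enzymes also form epoxides from arachidonic acid, had 2 of 5 members lower. Cyp2j6 was at 7.11, 6.85 and 7.24 in controls and 5.89, 6.27 and 6.79 in vehicle mice. Its groups did not overlap, and it fell by 0.80 ± 0.17 log2 (1.74-fold lower, adjusted p = 0.00897), with adjusted p up to 0.0988 when control 4 or control 50 was left out. For Cyp2j5 the controls lay at 9.87, 9.82 and 9.88 and the vehicle mice at 9.28, 9.41 and 9.61. The shift of -0.43 ± 0.11 (adjusted p = 0.0372) was small but without overlap. Its call was lost when arrays were centred on their medians (adjusted p = 0.0819) and when quantile normalization was repeated, which left -0.26 (adjusted p = 0.258). With vehicle mice 76 to 81 alone it did not pass either (adjusted p = 0.0605). It also lost its call without any 1 of the 3 controls or of vehicle mice 78, 79, 80, 93 and 94, with adjusted p up to 0.167. Cyp2j9 gave 0.22 ± 0.27, and the dim Cyp2j11 and Cyp2j13 gave 0.12 ± 0.18 and 0.05 ± 0.15.

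Of 3 measured targets of PPAR-alpha, the fatty acid receptor, in the 4a subfamily of fatty acid hydroxylases, 1 rose. Cyp4a31 had 6.25, 5.58 and 6.17 in controls and 6.43, 6.90 and 7.54 in vehicle mice, without overlap. The difference of 0.95 ± 0.25 log2 was 1.93-fold (adjusted p = 0.0406), and without any 1 of the controls or of vehicle mice 78, 79, 80, 93 and 94 it did not pass (adjusted p up to 0.217), nor without vehicle mice 92 to 94 together (adjusted p = 0.0504). Cyp4a14 differed by 0.65 ± 0.26 (adjusted p = 0.24) and Cyp4a10 by 0.30 ± 0.21 (adjusted p = 0.587). With vehicle mice 76 to 81 alone, and the nintedanib mice out of the fit as well, Cyp4a31 passed. In that fit Cyp4a14 also passed, at 0.88 ± 0.18 (adjusted p = 0.0249).

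None of 3 measured targets of the drug sensors CAR and PXR passed, Cyp2b10 among them with 6.29, 5.38 and 6.36 in controls and 4.36 to 5.87 in vehicle mice (-0.89 ± 0.57, adjusted p = 0.54). CAR itself (Nr1i3) differed by -0.68 ± 0.19 (adjusted p = 0.0541). Neither of 2 targets of the aryl hydrocarbon receptor, none of 4 vitamin D and retinoid genes and none of 6 steroid hormone genes passed. Cyp26a1, a retinoic acid hydroxylase, gave 0.14 ± 0.34, and Cyp51, the lanosterol demethylase of cholesterol synthesis, gave 0.21 ± 0.23. Cyp4f14, Cyp4f15 and Cyp4f13, which inactivate leukotrienes or related lipids, gave -0.19 ± 0.15, -0.20 ± 0.12 and -0.07 ± 0.13. Over the 24 dimmer members, differences ran from -0.41 (Cyp2d34) to 0.30 (Cyp19a1).

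In 11 of 58 members the vehicle levels all lay on the same side of all controls, 2 above and 9 below. Of all genes 4.76% separated in this way, 2.49% above and 2.27% below. The 9 were Cyp7b1, Cyp2u1, Cyp4a12a, Cyp2d9, Cyp2c37, Cyp2c50, Cyp2c54, Cyp2j5 and Cyp2j6. The calls rested on few controls: without control 49 they went from 10 to 6 and without control 50 to 5. Cyp7b1, Cyp2u1, Cyp2c37 and Cyp39a1 passed in each of the 22 fits that left out 1 mouse.

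**Figure D3:**
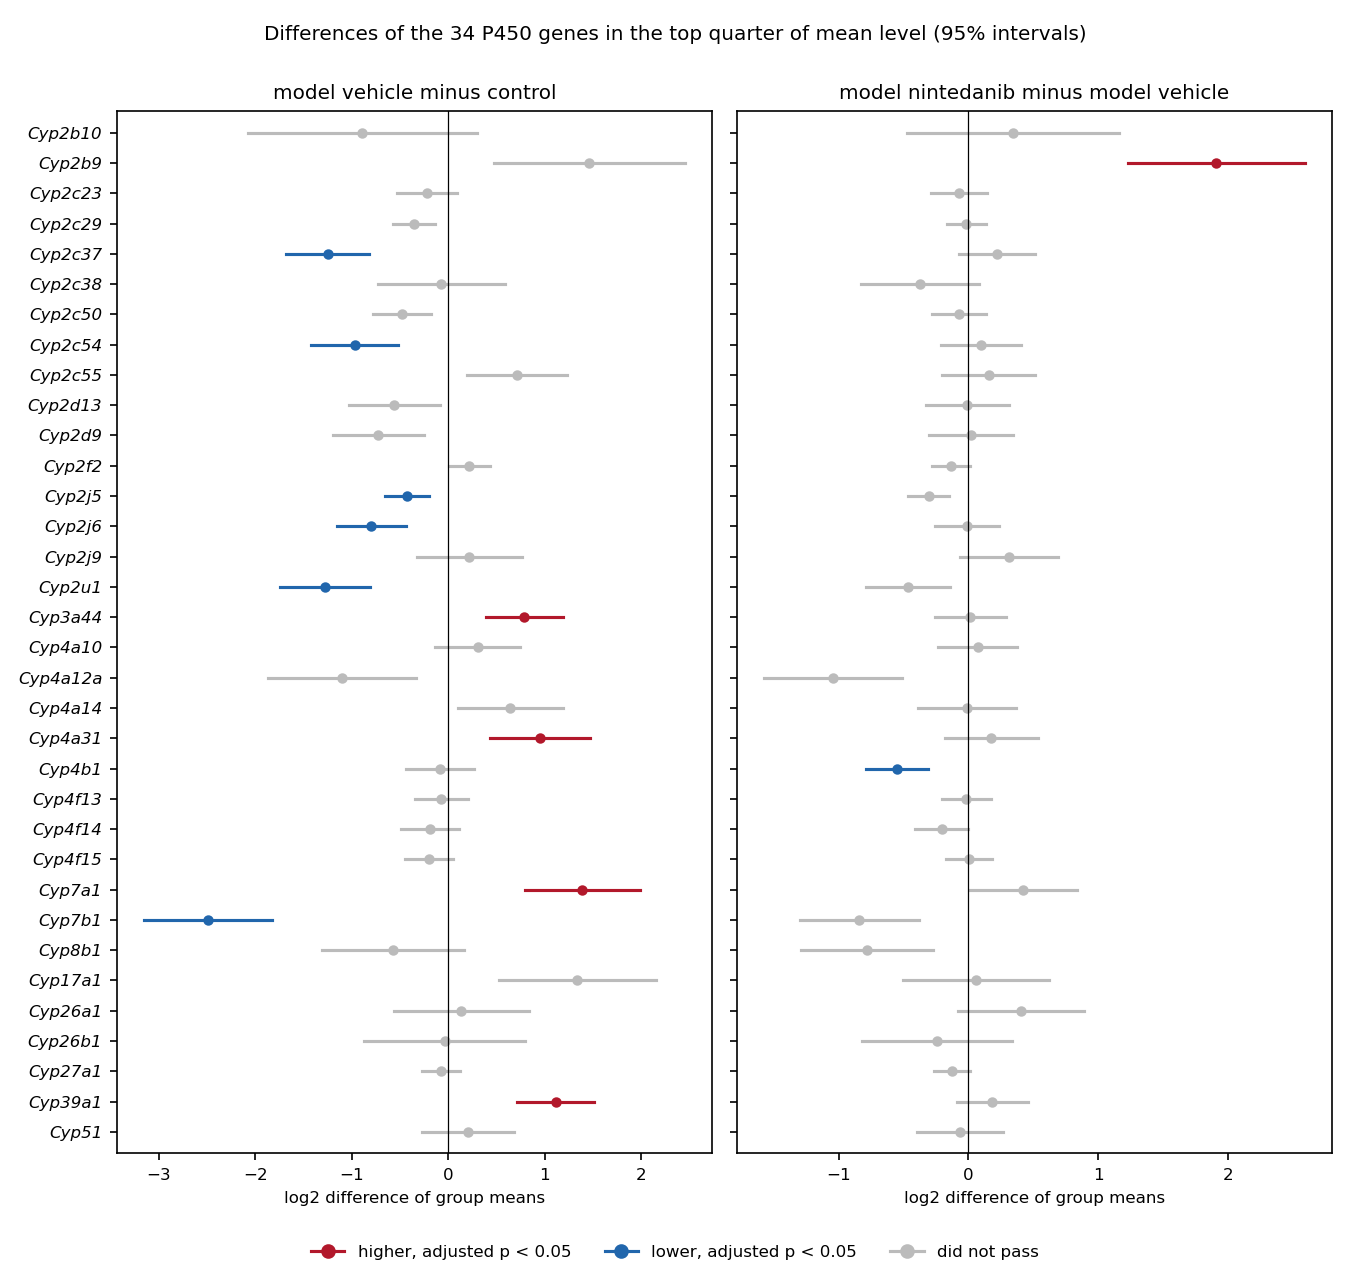
Differences in log2 level, with 95% intervals, for the 34 brighter P450 genes (mean level above 4.32), for model vehicle minus control (left) and model nintedanib minus model vehicle (right). Red marks higher and blue lower at an adjusted p under 0.05, and grey did not pass; 10 genes are coloured on the left and 2 on the right.

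Nintedanib was compared with vehicle in mice that had all received DEN and CCl4. In this comparison 2 of 58 members passed in limma's test, where 0.687% of all genes did: Cyp2b9 rose, as did 0.411% of genes, and Cyp4b1 fell, as did 0.276%. Both were brighter members, where 2.48% of genes passed. No member's groups were free of overlap, which 0.0672% of genes were. With the run as a block no member passed, and 0.0448% of genes did. Within mice 83 to 94 no gene of the table passed, and 3 members had an unadjusted p under 0.05, as did 5.19% of all genes, so the members stood at the background. At that unadjusted level 9 members stood in the fit of all mice (10.6% of all genes) and 7 with the block (4.95% of all genes). The median difference was -0.01 over the members and 0.01 over all genes. The count of 2 became 1 without vehicle mouse 76, 77 or 80, 4 without vehicle mouse 92 or nintedanib mouse 88, and 5 without nintedanib mouse 83.

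Cyp2b9, a steroid hydroxylase that adult male mouse liver expresses little, gave the largest difference among the members. Vehicle mice had a lowest, median and highest level of 3.63, 4.87 and 6.04, and nintedanib mice had 5.32, 6.65 and 8.18. All but 1 of the nintedanib mice (mouse 87, at 5.32) lay above all vehicle mice. The difference was 1.91 ± 0.33 log2, 3.76-fold (95% interval 1.23 to 2.59, adjusted p = 0.00727). With the block it was 1.97 ± 0.41 (adjusted p = 0.124) and within mice 83 to 94 it was 1.60 ± 0.47 (adjusted p = 0.828), and mouse 82 stood 2.92 above the mean of vehicle mice 76 to 81. It passed in every fit that left out 1 mouse.

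Promoters of Cyp2b9 and of its neighbour Cyp2b13 are printed because the genes are near copies, of which Cyp2b9 passed and Cyp2b13 did not. The difference between the changes of both genes was not tested. Windows run from 250 bases before to 50 after the start site, from RefSeq on GRCm38.p6, and capitals mark the bases that differ.
Cyp2b9, chr7:26173159-26173458, plus strand: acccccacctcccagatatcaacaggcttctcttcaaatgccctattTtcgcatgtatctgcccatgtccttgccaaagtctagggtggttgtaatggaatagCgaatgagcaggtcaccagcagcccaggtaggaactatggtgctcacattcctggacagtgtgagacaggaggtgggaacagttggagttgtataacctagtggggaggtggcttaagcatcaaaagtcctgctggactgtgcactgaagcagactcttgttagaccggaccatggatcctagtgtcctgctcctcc
Cyp2b13, chr7:26061245-26061544, plus strand: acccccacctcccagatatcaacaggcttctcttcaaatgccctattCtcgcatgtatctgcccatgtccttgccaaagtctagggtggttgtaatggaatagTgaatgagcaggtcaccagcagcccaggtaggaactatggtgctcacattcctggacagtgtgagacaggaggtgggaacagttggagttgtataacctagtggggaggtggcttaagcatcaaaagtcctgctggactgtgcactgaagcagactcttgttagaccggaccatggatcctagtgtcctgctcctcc
The windows share 298 of 300 bases. Counted from the first base of the window, with the base of Cyp2b9 first, the differences are T48C and C104T, 203 and 147 bases before the start.

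Cyp2b13 lay near the background of the arrays, at 1.89 to 2.78 in vehicle mice and 2.07 to 3.27 in nintedanib mice (0.15 ± 0.14, adjusted p = 0.787). Cyp2b10, the CAR target of the same subfamily, whose promoter window matched that of Cyp2b9 at 223 of 300 bases, spread widely. It lay between 4.36 and 5.87 in vehicle mice and between 4.05 and 7.66 in nintedanib mice (0.35 ± 0.40, adjusted p = 0.847; 0.53 ± 0.49 with the block). Its highest nintedanib levels were in mice 89, 91 and 90, at 7.66, 6.87 and 6.56, and 2 of these arrays stood apart from the rest.

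Cyp3a44 and Cyp3a16 are also near copies, and between vehicle mice and controls Cyp3a44 passed and Cyp3a16 did not, so their promoters are given too. Cyp3a16 was the dimmest member, near the background of the arrays. The difference between the changes of Cyp3a44 and Cyp3a16 was not tested. Capitals mark bases that differ or have no partner in the other window.
Cyp3a44, chr5:145805825-145806124, minus strand: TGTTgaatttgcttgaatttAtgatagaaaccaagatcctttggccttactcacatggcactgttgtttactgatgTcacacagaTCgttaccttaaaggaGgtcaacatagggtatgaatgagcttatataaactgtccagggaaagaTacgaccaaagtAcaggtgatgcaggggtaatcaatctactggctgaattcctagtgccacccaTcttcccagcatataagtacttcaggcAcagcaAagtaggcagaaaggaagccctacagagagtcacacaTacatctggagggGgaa
Cyp3a16, chr5:145469674-145469973, minus strand: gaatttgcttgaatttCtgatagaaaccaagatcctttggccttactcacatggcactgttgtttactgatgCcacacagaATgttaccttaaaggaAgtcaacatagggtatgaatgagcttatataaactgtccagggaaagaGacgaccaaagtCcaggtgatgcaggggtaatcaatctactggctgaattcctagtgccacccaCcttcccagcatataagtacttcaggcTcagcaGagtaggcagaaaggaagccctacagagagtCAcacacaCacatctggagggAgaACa
These windows share 284 bases, with 12 mismatches and 8 unpaired bases. Between nintedanib and vehicle mice Cyp3a44 differed by 0.02 ± 0.13 (95% interval -0.26 to 0.29), with -0.10 ± 0.16 in the block, and Cyp3a16 lay between 1.72 and 2.35 in both groups.

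Cyp4b1, which bioactivates several toxins and is best known from lung, had 6.77, 7.06 and 7.55 in vehicle mice and 6.22, 6.52 and 6.97 in nintedanib mice. The ranges overlapped between 6.77 and 6.97. It fell by 0.55 ± 0.12 log2 (1.46-fold lower, adjusted p = 0.0225). Run moved with this gene: vehicle mice 92 to 94 (6.77 to 6.98) all lay below vehicle mice 76 to 81, which reached 7.55. With the block the difference was -0.43 ± 0.14 (adjusted p = 0.579), and within mice 83 to 94 it was -0.29 ± 0.17. The call was lost without vehicle mouse 76, 77 or 80, with adjusted p up to 0.0572, and without nintedanib mice 89 and 91 (adjusted p = 0.0724).

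Other members had negative nintedanib differences that did not pass. Cyp4a12a had 6.61, 7.97 and 8.78 as lowest, median and highest in nintedanib mice, against 7.78, 9.02 and 9.52 in vehicle mice (-1.04 ± 0.26, adjusted p = 0.0558). The block left -1.03 ± 0.32 and mice 83 to 94 gave -0.56 ± 0.38, while mouse 82 was 2.25 below vehicle mice 76 to 81. Cyp7b1 was at 6.22, 7.17 and 8.12 under nintedanib (-0.84 ± 0.22, adjusted p = 0.0725), with a 95% interval of -1.56 to -0.43 with the block and a difference of -0.68 ± 0.35 within mice 83 to 94. Both genes passed when vehicle mouse 92, low for both, was left out.

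For Cyp2j5, nintedanib mice had 8.87, 9.10 and 9.55 (-0.30 ± 0.08, adjusted p = 0.0607), with -0.30 in the block and -0.28 within mice 83 to 94. Cyp2u1 gave -0.47 ± 0.16 (adjusted p = 0.205), -0.39 ± 0.20 with the block and -0.33 ± 0.25 within mice 83 to 94. Cyp8b1, with nintedanib levels of 6.41, 8.03 and 8.61, gave -0.78 ± 0.25 (adjusted p = 0.163), -0.50 ± 0.29 with the block and -0.59 ± 0.38 within mice 83 to 94. Cyp7a1 was at 8.41, 9.19 and 9.62, and its difference of 0.42 ± 0.20 went to 0.12 ± 0.23 with the block and to -0.00 ± 0.23 within mice 83 to 94. The adrenal gene Cyp11b2, which is dim here, gave 0.40 ± 0.19 (adjusted p = 0.447) and 0.27 ± 0.23 with the block. These misses of the threshold do not show that the levels were alike.

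**Figure D4:**
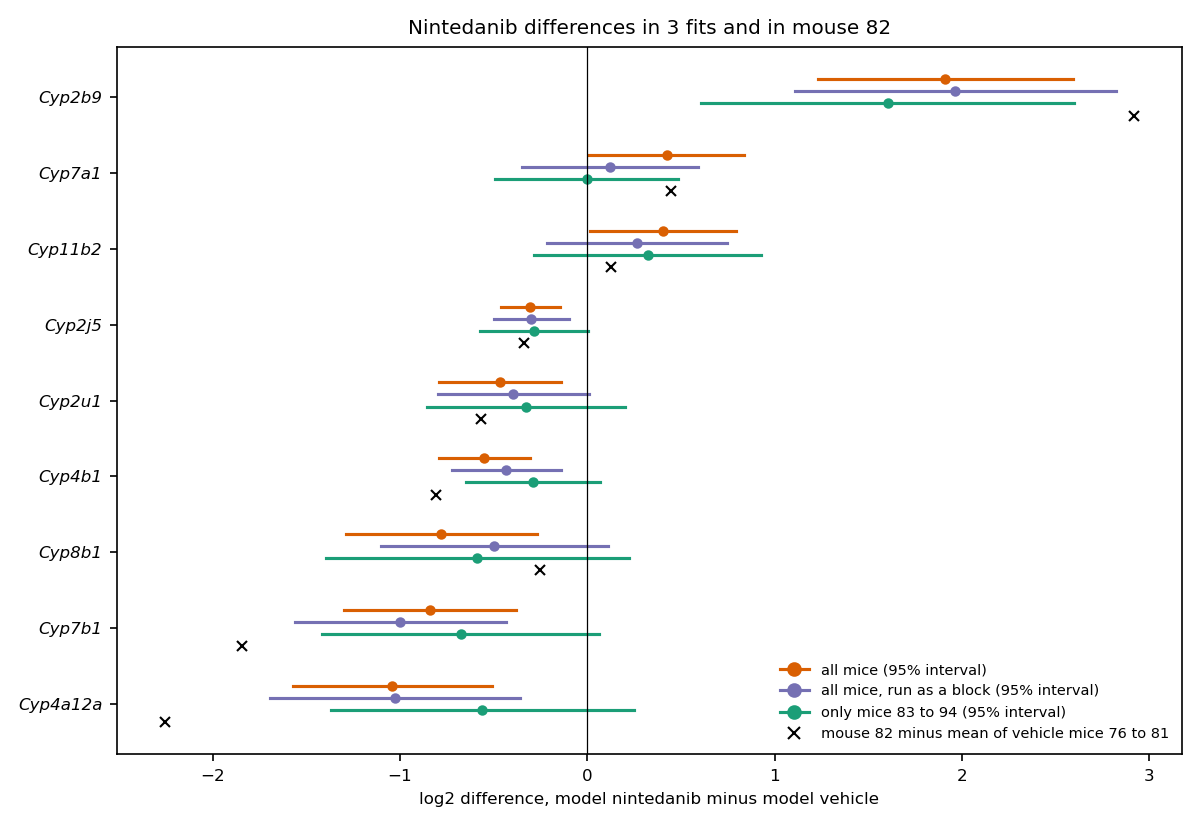
Nintedanib minus vehicle difference in log2 level, with 95% intervals, for the 9 P450 genes with an unadjusted p under 0.05, in all mice, in all mice with the run of title numbers as a block, and in mice 83 to 94 alone; crosses give mouse 82 minus the mean of vehicle mice 76 to 81, with no error. Cyp2b9 lies at 1.91, 1.97 and 1.60 in the 3 fits, whereas Cyp7a1 goes from 0.42 to -0.00.

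Other members that had passed between vehicle mice and controls did not pass here. Cyp2c37 gave 0.22 ± 0.14 (95% interval -0.07 to 0.52), Cyp2c54 0.10 ± 0.15 (-0.21 to 0.41), Cyp2j6 -0.01 ± 0.12 (-0.26 to 0.23) and Cyp4a31 0.18 ± 0.17 (-0.18 to 0.54). With the block these were 0.33 ± 0.18, 0.13 ± 0.19, -0.08 ± 0.15 and 0.30 ± 0.21, and within mice 83 to 94 they were 0.36 ± 0.24, 0.23 ± 0.24, -0.31 ± 0.16 and 0.30 ± 0.26. For Cyp39a1 the difference was 0.19 ± 0.13, and 0.38 ± 0.15 with the block (adjusted p = 0.862). Within mice 83 to 94 the retinoic acid hydroxylase Cyp26b1 (0.54 ± 0.22, adjusted p = 0.955) and Cyp46a1 (0.42 ± 0.18, adjusted p = 0.955) stood beside Cyp2b9 at an unadjusted p under 0.05. Over all mice Cyp26b1 had the opposite sign, at -0.24 ± 0.28, and Cyp46a1 gave 0.28 ± 0.15.

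Partners of the P450 enzymes were measured in part. Of 4 electron donors measured, Por rose with nintedanib, from a mean of 8.05 in vehicle mice to 8.99 (0.94 ± 0.18, adjusted p = 0.0112). With the block its difference was 0.40 (adjusted p = 0.562) and within mice 83 to 94 it was 0.47. Alas1, the rate-limiting enzyme of haem synthesis, went from 9.64 to 10.65 (1.02 ± 0.26, adjusted p = 0.0686), with differences of 0.37 with the block and 0.47 within mice 83 to 94. None of the 6 haem genes passed. Of 25 measured P450 regulators 2 rose, the liver factor Cebpb (0.67 ± 0.08, adjusted p = 9.98e-05, and adjusted p = 0.00219 with the block) and the clock-linked factor Hlf (0.68 ± 0.14, adjusted p = 0.0177, and adjusted p = 0.842 with the block). CAR (Nr1i3) gave 0.52 ± 0.13 (adjusted p = 0.0603), 0.33 with the block and 0.41 within mice 83 to 94. Of the cell markers, the endothelial gene Cldn5 fell (-0.61 ± 0.14) and no other passed; with the block it gave -0.53 (adjusted p = 0.568) and within mice 83 to 94 it gave -0.70. The part of these genes in the P450 differences was not tested.

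Nintedanib mice were finally set against the controls, which serve both model groups, so this comparison is not independent of the others. Here 18 of 58 members passed in limma's test, against 5.85% of all genes, 7 higher and 11 lower, against 2.87% and 2.99%. Among the 34 brighter members the same 18 passed, against 16.6% of the brightest genes. The largest were Cyp2b9 at 3.37 ± 0.47 log2, 10.4-fold (adjusted p = 5.49e-05), Cyp7b1 at -3.33 ± 0.32, 10.1-fold lower (adjusted p = 1.51e-07), and Cyp4a12a at -2.14 ± 0.37, 4.41-fold lower (adjusted p = 0.000612). Cyp7a1 gave 1.82 ± 0.29, Cyp2u1 -1.74 ± 0.23, Cyp39a1 1.30 ± 0.19 and Cyp4a31 1.13 ± 0.25. In 16 members the groups did not overlap, 4 above and 12 below, where 4.91% of genes did so, 2.47% above and 2.44% below.

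With the run as a block 9 of the 18 passed, against 1.82% of genes: Cyp2b9, Cyp39a1, Cyp4a31 and Cyp7a1 higher (1.06% of genes), and Cyp7b1, Cyp4a12a, Cyp2u1, Cyp2j5 and Cyp2j6 lower (0.762%). The other 9 did not: Cyp17a1 (1.40 ± 0.39, with the block 1.12 ± 0.50), Cyp2c55 (0.87 ± 0.25, 0.81 ± 0.32), Cyp3a44 (0.80 ± 0.19, 0.62 ± 0.24), Cyp2c29 (-0.37 ± 0.10, -0.23 ± 0.13), Cyp2c37 (-1.03 ± 0.20, -0.86 ± 0.26), Cyp2c50 (-0.55 ± 0.15, -0.47 ± 0.19), Cyp2c54 (-0.87 ± 0.21, -0.82 ± 0.28), Cyp4b1 (-0.63 ± 0.17, -0.45 ± 0.21) and Cyp8b1 (-1.35 ± 0.35, -0.90 ± 0.44). All 9 kept their sign. Without control 50 the count went from 18 to 10, and without control 49 to 11. Of the 9 that passed with the block, Cyp2j6 lost its call without control 50 (adjusted p = 0.0513) and Cyp4a31 without control 49 (adjusted p = 0.0719). Of the other 9, all but Cyp2c37 lost it without at least 1 of the controls, and Cyp2c55 also without nintedanib mouse 85, 87, 88 or 90. In this comparison 3 of the 4 male-biased members fell and 4 of the 6 female-biased members rose, against 2.99% and 2.87% of all genes. Among the brightest genes, which hold all 4 male-biased and 4 of the 6 female-biased members, 7.74% fell and 8.84% rose. Of the 34 brighter P450 members, 11 fell and 7 rose. With the block 3 male-biased members fell and 2 female-biased members rose. Both lists were drawn up with earlier results of these data known. Cyp2c55 also lost its call when arrays were centred on their medians or only the groups compared were fitted, Cyp2c29 and Cyp2c50 when quantile normalization was repeated, and Cyp17a1 with array weights.

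The runs of title numbers could be compared within the vehicle group. Cyp1a1 (2.84 to 3.06 in mice 76 to 81, 2.20 to 2.54 in mice 92 to 94) and Cyp4b1 separated, both lower in mice 92 to 94. That is 2 of 58 members, where 6.24% of all genes separated and 3.08% did so downward, so the members stood near the background. The largest mean differences between the runs were -1.24 log2 for Cyp26b1, 0.72 for Cyp17a1, -0.70 for Cyp4a14 and 0.68 for Cyp7a1, over 6 and 3 mice.

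Members were also compared from mouse to mouse, as deviations from the mean of each group and run in 21 mice (mouse 82 is the only nintedanib mouse of its run). In all, 6 pairs were examined, with 100000 permutations within group and run. Cyp2c37 and Cyp2c54 moved together (Pearson r = 0.738, permutation p = 0.00176, adjusted 0.0106, Spearman rho = 0.666, permutation p = 0.00278, adjusted 0.0167). Without the 2 mice farthest from the median of Cyp2c37, r was 0.694. These are neighbouring 2c genes whose probe sets may share transcripts. Cyp4a10 and Cyp4a14 gave r = 0.631 and rho = 0.604 (permutation p adjusted 0.0608 and 0.0511), and r = 0.485 without 2 mice. Cyp4a12a with Cyp7b1 (r = 0.489), Cyp7a1 with Cyp8b1 (0.323), Cyp2b9 with Cyp4a12a (-0.218) and Cyp2b9 with Cyp7b1 (-0.277) did not pass, with permutation p adjusted from 0.132 to 0.477 over r and rho.

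RefSeq promoter windows were found for 39 of the 58 members, 47 windows in all. The letters TATAAA, read on both strands, occurred in 14 of them (29.8%) against 13.6% of the 32851 promoters of the table. On the gene's own strand those of Cyp8b1, Cyp2c38, Cyp2c55, Cyp1a1 and Cyp19a1 began 29 to 31 bases before the start. CAAGGNCA, the letters of the LRH-1 site of bile acid genes, occurred in 8 windows (17%, against 6.71%), among them Cyp8b1, 60 bases before its start, and Cyp2b9, Cyp2b13 and Cyp2b10. TTCNNNGAA, the STAT letters, occurred in 4 (8.51%, against 8.3%), among them Cyp4b1, and TTATGTAA, the D box of clock output factors, occurred in 0 against 0.938%. A match is a description of these letters and not a site. Near copies share matches: Cyp2b9 and Cyp2b13 both hold CAAGGNCA 185 bases before the start, and Cyp3a44 and Cyp3a16 both hold TATAAA. The windows are therefore not independent, and the shares were not tested against those of all promoters.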

How the data were processed

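The deposited values are log2 expression levels. Per the labels and the series' design text, the authors computed them by robust multiarray averaging over custom probe sets grouped by Entrez ID, and the sources used here name no software version. That method normalizes arrays to 1 distribution and compresses differences near the background. Precision is limited by the number of arrays, 3, 9 and 10 per group.

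The 3 group means were fitted to all 13392 genes and 22 arrays with limma 3.58.1 in R 4.3.3 (lmFit, eBayes, 2-sided, 19 residual degrees of freedom), with Benjamini-Hochberg adjustment over all genes and a threshold of 0.05. A ± is the SE of the fit, and intervals are 95%. The run block placed the controls with mice 76 to 82. The script was checked on simulated data with independent noise for each gene and array. Those data held no runs and no arrays that stood apart, so the check does not cover these features. The named genes are the 18 members past the threshold in a comparison and up to 3 others of each family with the smallest p, plus the listed partners and markers. Members and lists were chosen with earlier results of these data known. Normalization, filters, trend, weights, the block, left-out mice and a stricter threshold were tried as alternatives; mouse 82 against vehicle mice 76 to 81 was added after seeing the data. Limma's p-values set a difference of group means against a spread between mice that all fitted groups share. In the fit of all mice without the block, that spread includes differences between the runs. The labels do not say how the mice were kept.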

Additional observations from a re-analysis of the deposited data

Results flagged for a closer look

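In 36 groups of the 18 called members (vehicle and nintedanib for each), 3 held a mouse far from the others, and chance flags about 1 in 20 groups. For Cyp17a1, vehicle mouse 92 was the highest of its group at 7.62, with the next at 5.91. For Cyp2c37, the same mouse was the lowest at 8.37, with the next at 8.97. For Cyp2j5, nintedanib mouse 83 was the highest at 9.55, with the next at 9.22. Vehicle mouse 92 also had the lowest Cyp7b1 (6.81), Cyp4a12a (7.78), Cyp2d9 (9.54) and Cyp8b1 (7.50) of the vehicle group.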

How the results depend on the processing

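The count of members called between vehicle mice and controls was 10, and 6 at a threshold of 0.01; it ran from 5 to 11 when 1 mouse was left out. Between nintedanib and vehicle mice it was 2. It was 0 with the run as a block, 0 in mice 83 to 94 alone, 4 without vehicle mice 92 to 94 (with Cyp4a12a and Cyp7b1 added), 1 without nintedanib mice 89 and 91, 1 at a threshold of 0.01, and from 1 (without vehicle mouse 76, 77 or 80) to 5 (without nintedanib mouse 83) when 1 mouse was left out; without vehicle mouse 92 or nintedanib mouse 88 it was 4. Between nintedanib mice and controls the 18 became 9 with the block and 10 at a threshold of 0.01, and ran from 10 to 19 when 1 mouse was left out. No paired analysis was possible because each title number belongs to 1 mouse. Of the 30 calls of single genes none changed sign. In 342 other settings of these genes 301 kept the call and 41 lost it, and of 660 fits that left out 1 mouse 49 lost it. Signal limits the 24 dimmer members, whose differences are compressed near the background.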
